A study of Mus musculus with 10 samples.

Results

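Replication-dependent histone genes supply the core histones H2A, H2B, H3 and H4 and the linker histones H1 that package newly made DNA. They were taken as the rows of the deposited expression table whose symbols name a clustered histone gene (H1f1 to H1f5 and the numbered H2ac, H2bc, H3c and H4c genes). The table held 63 of them among 22186 genes, namely 5 H1, 17 H2A, 17 H2B, 12 H3 and 12 H4 genes. Their levels were compared in RAW264.7 cells, an established line of macrophage type that came from a mouse tumour and is labelled wild type. The 2 groups were 5 libraries of cells kept in medium and 5 of cells kept in medium with doxorubicin for 24 h. Doxorubicin is a cancer drug of the anthracycline class that slides between DNA bases and leaves topoisomerase II stuck at cut DNA. The sources disagree on the dose: the sample titles give 10 nM, the series design gives 100 nM, and a 100 mM stock in dimethyl sulfoxide used at 0.001% (v/v), as the protocol has it, comes to 1000 nM. The labels name this solvent for the doxorubicin cultures only. Whether each library had a culture of its own is not stated, so the p-values below measure only the spread between these samples, which may be technical. Libraries are named by group and number (medium 1, doxorubicin 1 and so on), and both groups carry numbers 1 to 5. The series title asks whether doxorubicin brings about the secretory phenotype of senescent cells.

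Most messenger RNAs end in a poly(A) tail. Those of replication-dependent histones are the known exception in animals: they end just after a short hairpin, the stem-loop, which is bound by the protein SLBP, and they are made in S phase and degraded when DNA synthesis stops. Some of these genes are also known to give polyadenylated RNA from sites downstream of the stem-loop, mainly in cells that leave the cycle. The RNA of this study was captured on oligo(dT) beads, which hold poly(A) tails. A value below is therefore the level of histone RNA that reached an oligo(dT) library, and how much of the histone RNA in the cells this was cannot be told apart from the deposited values. Fewer expressing cells and less RNA per cell cannot be told apart either.

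The stem-loop was looked for in the reference transcripts (GENCODE M21, build GRCm38), since it marks where the form without a tail ends. Of the 63 genes, 62 were matched to such transcripts, and 42 of these held the 16-base stem-loop in some transcript, against 86 of 55450 genes in the annotation (0.155%). The lines below give it for the 9 of 12 better expressed genes in which it was found, in capitals, with the 5 bases on each side in lower case. They are shown because the hairpin is nearly the same in genes whose measured levels differed widely.
H1f2: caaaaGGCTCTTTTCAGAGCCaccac
H2ac8: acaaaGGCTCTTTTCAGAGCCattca
H2bc6: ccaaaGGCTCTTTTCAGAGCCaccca
H2bc8: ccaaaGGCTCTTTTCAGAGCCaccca
H2bc9: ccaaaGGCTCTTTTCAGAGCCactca
H3c4: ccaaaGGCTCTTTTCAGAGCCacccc
H3c8: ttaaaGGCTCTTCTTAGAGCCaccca
H4c8: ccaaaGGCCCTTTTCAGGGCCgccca
H4c9: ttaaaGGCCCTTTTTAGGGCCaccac
Of these 9 genes, 6 carried the identical 16 bases, and H2bc6 and H2bc8 were alike over all 26 bases printed. The annotated transcripts differed in what follows the hairpin. They ran on for 1861 bases in H2bc6, 1214 in H2bc9, 840 in H1f2, 752 in H3c4, 330 in H4c9, 155 in H2bc8 and 151 in H2ac8, but for only 47 in H3c8 and 46 in H4c8. No match was found in H2bc4, whose annotated transcript has 2 exons and 1156 bases, in H2bc21 (2620 bases) or in H4c12, whose annotated transcript (312 bases) is little longer than its coding sequence (309 bases).

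Promoters of the group were searched for 3 short motifs. RefSeq promoter windows (GRCm38.p6, 250 bases before to 50 after the start) were matched for 57 of the 63 genes, with 58 windows, and H2bc24, H2bc21, H4c14, H3c7, H2bc4 and H3c1 were not matched. The CCAAT box (CCAAT on either strand) was in 50 of the 58 windows (86.2%), against 37.4% of 32851 promoters. It stood in all 5 H1, 17 H2A, 15 H2B and 10 H3 windows, but in 3 of 11 H4 windows. The TATA box (TATAAA on either strand) was in 34 windows (58.6%), against 13.6% of all promoters. The octamer (ATTTGCAT on either strand) was in 13 (22.4%), against 1.74%, and all 13 were H2A or H2B windows. H2A and H2B genes that start back to back share part of their windows, so a motif in the shared part was counted in both. These letters are a description of the windows and not a map of bound sites. The windows below are those of an H1, an H3 and an H2B gene that differed between the groups in the paired test given further on, with the 3 motifs in capitals, on the plus strand of chromosome 13. They lie at chr13:23738557-23738856 for H1f2, at chr13:23535168-23535467 for H3c8 and at chr13:23571150-23571449 for H2bc8.
H1f2: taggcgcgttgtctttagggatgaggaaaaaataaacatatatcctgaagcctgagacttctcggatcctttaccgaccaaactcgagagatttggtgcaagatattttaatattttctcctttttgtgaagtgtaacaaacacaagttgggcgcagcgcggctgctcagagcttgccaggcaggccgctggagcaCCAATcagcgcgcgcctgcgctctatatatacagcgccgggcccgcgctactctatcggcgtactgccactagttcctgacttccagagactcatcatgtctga
H3c8: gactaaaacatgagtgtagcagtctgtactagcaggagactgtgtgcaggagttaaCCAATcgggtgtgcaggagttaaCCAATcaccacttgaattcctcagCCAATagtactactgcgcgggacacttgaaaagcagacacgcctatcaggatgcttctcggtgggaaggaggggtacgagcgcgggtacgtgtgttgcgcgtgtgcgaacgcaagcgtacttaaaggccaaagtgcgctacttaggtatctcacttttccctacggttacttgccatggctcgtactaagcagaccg
H2bc8: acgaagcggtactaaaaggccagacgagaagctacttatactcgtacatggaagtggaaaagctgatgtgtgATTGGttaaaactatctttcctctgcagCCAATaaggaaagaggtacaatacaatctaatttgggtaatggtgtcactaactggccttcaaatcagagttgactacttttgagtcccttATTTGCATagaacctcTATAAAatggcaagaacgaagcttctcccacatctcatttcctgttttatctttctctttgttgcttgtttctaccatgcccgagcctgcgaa
In H2bc8 the octamer lies 59 bases and the TATA box 43 bases before the start, and in H1f2 the CCAAT box lies 54 bases before it. H3c8 holds 3 CCAAT boxes, and the ATTGG of H2bc8 is CCAAT read on the other strand.

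Levels are in FPKM, fragments counted per unit of transcript length and of mapped fragments, so genes can be set side by side. The FPKM of a library summed to between 338293 and 356111, and its depth is not known. Medium 1 and doxorubicin 1 differed from all others (Fth1, a ferritin gene, took 5.21% and 3.88% of their FPKM, against 2.14% to 2.56%), and medium 3 stood apart for weakly expressed histone genes, as described below. The cells carried the defining macrophage markers (Cd68 at 416 to 609 FPKM and Csf1r at 80.7 to 101 across libraries), although Mertk stayed at 0.175 to 0.628. Markers of lymphocytes summed to at most 0.397 FPKM in any library (4 of 8 at 0 in every library), those of neutrophils to at most 1.74 (2 of 6 at 0), and those of fibroblasts, epithelium, endothelium and erythroid cells to at most 0.757 (3 of 10 at 0). No macrophage marker passed the test given below without a block. With the replicate block Lyz2 (log2 fold change 0.27), Itgam (0.27) and C1qc (0.39) were higher of the 11 tested (7.81% of all genes).

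Most replication-dependent histone genes were near the floor of the table, and 1 gene led each class. Over all 10 libraries 12 of the 63 averaged 1 FPKM or more, 51 averaged less, and H2ac1, a testis histone gene, was at 0 throughout. The 12 were H1f2 of the H1 class, H2ac8 of H2A, H2bc4, H2bc6, H2bc8, H2bc9 and H2bc21 of H2B, H3c4 and H3c8 of H3, and H4c8, H4c9 and H4c12 of H4. The lowest mean among them was 1.05 (H2bc9) and the highest mean below the limit was 0.737 (H1f3). In medium, H2bc4 (32.0 ± 4.18 FPKM, SD, n = 5), H1f2 (27.0 ± 4.75) and H4c9 (25.2 ± 7.67) stood far above the rest, and their ranges over the 5 libraries overlapped. These 3 genes held 60.0% to 82.1% of the summed FPKM of all 63 genes in a library. H2bc21 followed at 4.68 ± 0.742, and the other 8 had medium means between 0.824 (H4c8) and 2.24 (H2ac8). For scale, the variant histone gene H2az1, whose RNA is polyadenylated and made throughout the cycle, stood at 549 ± 126 FPKM in medium.

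**Figure D1:**
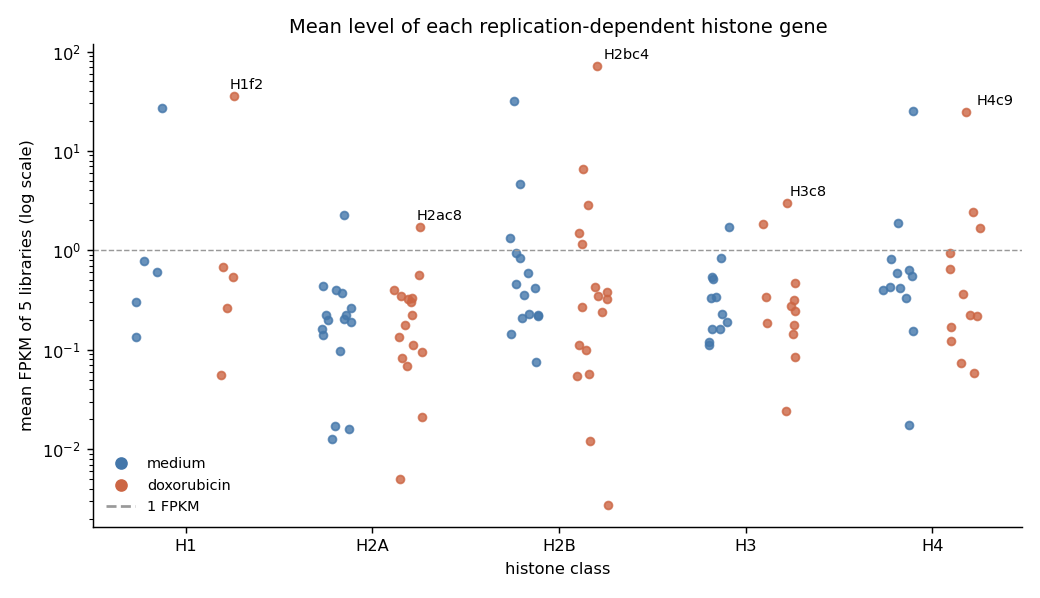
Mean FPKM over 5 libraries (log axis) of each replication-dependent histone gene, by class, in medium (blue) and with doxorubicin (orange). The dashed line is 1 FPKM, and genes at 0 in all libraries of a group (3 in medium, 1 with doxorubicin) are not drawn. H1f2, H2bc4 and H4c9 stand more than 10 times above most members of their classes.

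With doxorubicin, H2bc4 more than doubled, and the better expressed genes of H1, H2B and H3 all had higher means, while the leading H4 gene, H4c9, differed by less than its SE and the H2A gene H2ac8 had a lower mean. The 9869 genes that averaged 1 FPKM or more, these 12 among them, were tested with limma on log2(FPKM + 1), a scale on which low genes show less than their full change, with Benjamini-Hochberg adjustment over all 9869. Without a block, 1 of the 12 was higher (H2bc4) and 0 lower at an adjusted p under 0.05. Over all genes tested, 0.689% were higher and 0.223% lower. At an unadjusted p under 0.05, 6 of the 12 were higher and 0 lower, against 6.62% and 11.2% of all genes. With the replicate number as a block, which compares medium and doxorubicin libraries of the same number, 7 of the 12 were higher (H1f2, H2bc4, H2bc6, H2bc8, H2bc21, H3c4 and H3c8) and 0 lower, against 7.81% higher and 13.7% lower of all genes. Of the 12, 10 had a log2 fold change above 0 (all but H4c9, whose sign changed with the scaling, and H2ac8), against 43.2% of all genes, and the median was 0.43, against -0.03. The 12 passed the filter on their mean over both groups, so these counts say nothing of the 51 genes below it. H2bc6, H2bc9, H3c4 and H4c8 had medium means of 0.836, 0.938, 0.830 and 0.824 FPKM and passed only through their doxorubicin libraries. The filter thus favoured a positive change in these genes, and the counts and the median of the 12 lean that way.

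**Figure D2:**
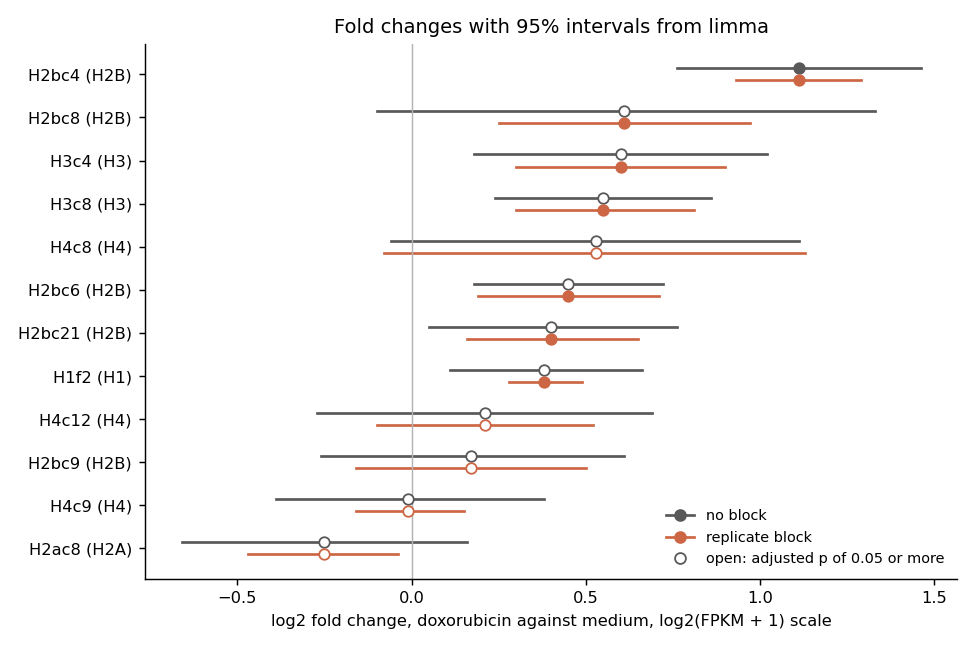
Log2 fold change (doxorubicin against medium, on the log2(FPKM + 1) scale) with the 95% interval from limma for the 12 histone genes tested, without a block (grey) and with the replicate block (orange). Filled points have an adjusted p under 0.05. H2bc4 at 1.11 is filled in both fits, and 6 further genes are filled with the block only.

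Doxorubicin 1 was the highest of the 10 libraries for 10 of the 12 genes. Set against the rest of its group, the median log2 deviation of the 12 was 0.58 in doxorubicin 1, 0.29 in medium 1 and 0.36 in medium 3, and between -0.27 and -0.04 in the other 7. Without both number 1 libraries the median log2 fold change of the same 12 genes was 0.29. The filter was kept as drawn over all 10 libraries, so its lean remained in this median. H2bc4, H2bc6 and H1f2 were then higher without a block (2.87% of all genes higher and 2.77% lower). With the block 7 were higher and H2ac8 was lower (10.2% and 18.4% of all genes). Genes of S phase, when these histones are made, deviated in the opposite direction to the 12 in medium 1, doxorubicin 1 and medium 2. They deviated in the same direction in medium 3. The median deviation of 30 S phase genes was -0.55 in medium 1, -0.39 in doxorubicin 1, 0.40 in medium 2 and 0.25 in medium 3. The part of S phase genes or of these libraries in the histone result was not tested.

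Among the H2B genes, which encode the partner of H2A in the nucleosome, H2bc4 had the largest change of the 12. It read 38.7, 31.8, 32.5, 27.6 and 29.5 FPKM in medium 1 to 5 and 108, 62.6, 60.9, 59.6 and 66.9 FPKM in doxorubicin 1 to 5. The lowest doxorubicin library lay well above the highest medium library, with doxorubicin 1 far above the other 4. All 5 doxorubicin libraries lay above all 5 medium libraries in 2 of the 12 genes (H2bc4 and H2bc6; 2.73% of all genes) and below them in 0 (3.97%). H2bc6 passed the filter only through its doxorubicin libraries, so this count leans upward. The group means were 32.0 ± 4.18 and 71.6 ± 20.6 FPKM, a log2 fold change of 1.11 (SE 0.16; limma adjusted p = 0.0154, and 0.000316 with the replicate block). The difference within numbers 1 to 5 was 1.46, 0.95, 0.89, 1.08 and 1.15 on the log2 scale. Leaving out medium 4 gave an adjusted p of 0.0581 and leaving out both number 3 libraries 0.0855, while the log2 fold change stayed between 0.95 and 1.18 with any 1 library left out.

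H2bc21, an H2B gene outside the large histone cluster and known for polyadenylated RNA, was at 4.17, 3.89, 4.44, 5.29 and 5.62 FPKM in medium 1 to 5 and at 8.85, 4.35, 5.31, 7.08 and 7.56 with doxorubicin 1 to 5. It was higher in each of the 5 numbers, but doxorubicin 2 and 3 lay within the range of the medium libraries. The log2 fold change was 0.40 (SE 0.16; limma adjusted p = 0.227, and 0.0325 with the replicate block). None of its 50-base stretches occurs in another gene's transcripts of the reference. Its value should thus depend less on how reads of near-identical copies were shared out, although shorter or inexact matches were not examined.

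H2bc6 read 0.291, 0.888, 1.10, 1.02 and 0.877 FPKM in medium and 1.63, 1.37, 1.53, 1.38 and 1.48 with doxorubicin. The groups did not overlap, and medium 1 was the lowest library. Its log2 fold change was 0.45 (SE 0.12; limma adjusted p = 0.114, and 0.0274 with the block). H2bc8 read 2.45, 1.18, 1.39, 0.551 and 1.05 FPKM in medium and 6.99, 1.12, 1.999, 1.81 and 2.35 with doxorubicin. Its groups overlapped, doxorubicin 1 stood alone at the top, and in number 2 the difference was -0.04 on the log2 scale. The log2 fold change was 0.61 (SE 0.32; limma adjusted p = 0.347, and 0.0286 with the block). H2bc9 ranged from 0.431 to 1.54 FPKM in medium and from 0.564 to 1.72 with doxorubicin, with a log2 fold change of 0.17 (adjusted p = 0.693, and 0.408 with the block). Higher in 4 numbers and lower in number 3, it was not told apart between the groups.

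**Figure D3:**
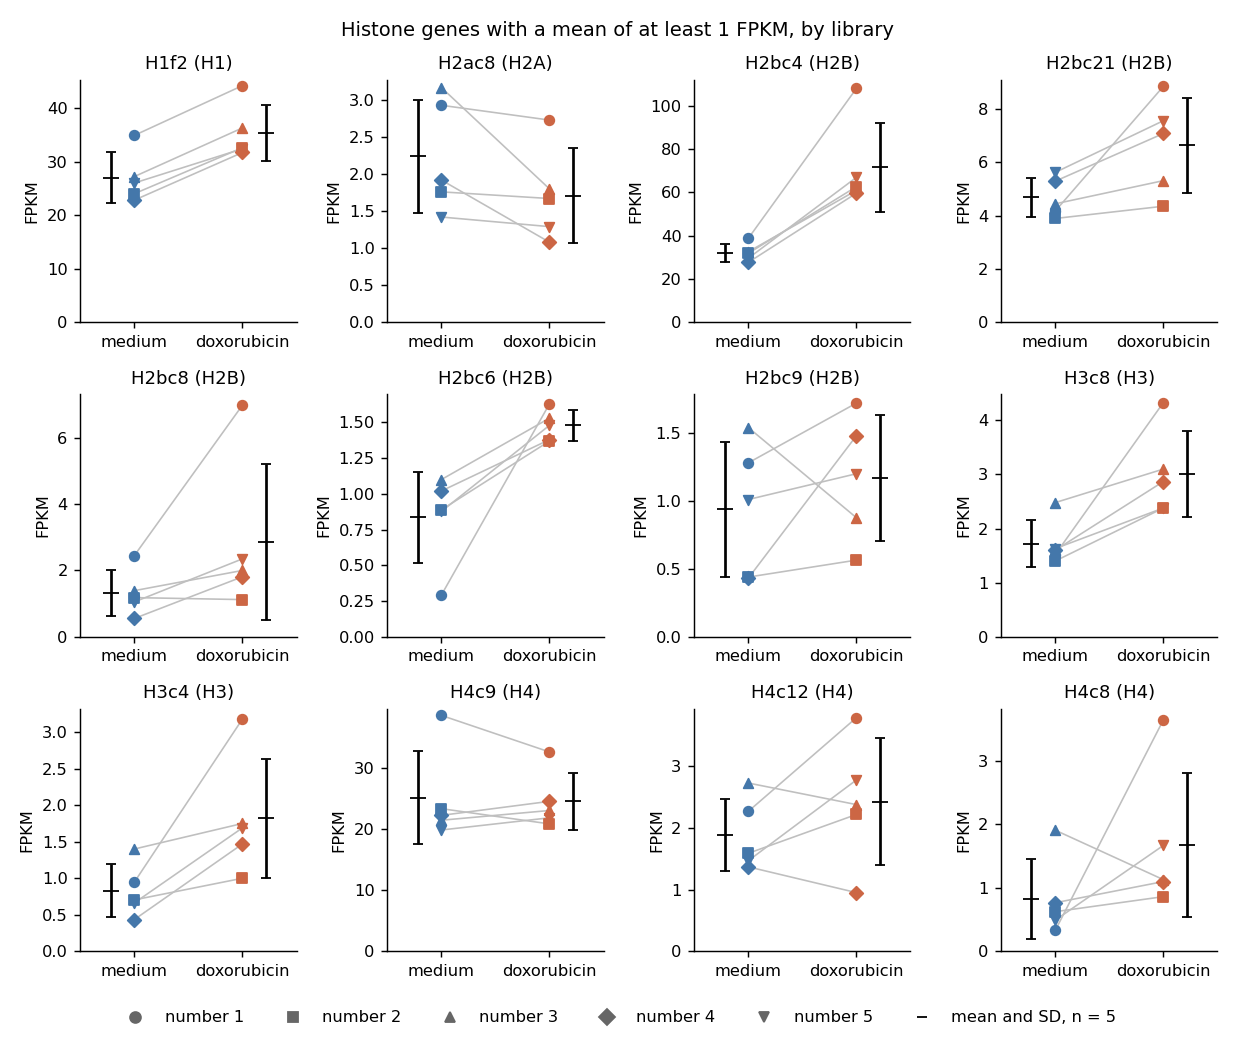
FPKM of the 12 better expressed histone genes in each library, with symbols for the replicate numbers and grey lines joining the medium and doxorubicin libraries of a number. Black bars give the mean and SD (n = 5). H2bc4 and H2bc6 show no overlap between groups, H1f2 rises along each line, and the lines of H4c9 cross.

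H1f2, which encodes a linker histone that sits where DNA enters and leaves the nucleosome, was the H1 gene above the filter. It was at 34.9, 24.0, 27.2, 22.8 and 26.0 FPKM in medium 1 to 5 and at 44.2, 32.6, 36.3, 31.7 and 32.4 with doxorubicin 1 to 5. Medium 1 lay within the doxorubicin range, and each doxorubicin library was above the medium library of its number, by 0.33, 0.43, 0.40, 0.46 and 0.30 on the log2 scale. The mean went from 27.0 ± 4.75 to 35.4 ± 5.22 FPKM (log2 fold change 0.38, SE 0.12, limma adjusted p = 0.152, and 0.00227 with the replicate block). Without medium 1 the unblocked adjusted p was 0.0386. H1f2 shares little sequence with other genes: 8.54% of its 50-base stretches occur elsewhere.

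The H3 genes encode the core histone whose tail carries most of the studied marks. H3c8 read 1.52, 1.40, 2.48, 1.60 and 1.63 FPKM in medium and 4.33, 2.38, 3.10, 2.87 and 2.38 with doxorubicin. Medium 3 was the only medium library to reach the doxorubicin range. The log2 fold change was 0.55 (SE 0.14; limma adjusted p = 0.103, and 0.0138 with the replicate block). H3c4 read 0.947, 0.704, 1.40, 0.435 and 0.663 FPKM in medium and 3.18, 1.00, 1.75, 1.47 and 1.69 with doxorubicin, and again medium 3 was the only medium library within the doxorubicin range. Its log2 fold change was 0.60 (SE 0.19; limma adjusted p = 0.150, and 0.0166 with the block). Both genes were higher in each of the 5 numbers, as were 6 of the 12 genes in all (13.2% of all genes). H3c4 and H2bc6, which are among these, passed the filter only through their doxorubicin libraries, so this count leans upward. In H3c8 54.1% of 50-base stretches occur in another gene, and in H3c4 24.8%, so their split from other H3 copies is uncertain.

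The H4 genes differed from each other. H4c9, the leading one, read 38.7, 23.4, 21.5, 22.3 and 19.9 FPKM in medium and 32.7, 20.9, 23.1, 24.6 and 21.9 with doxorubicin. The ranges covered each other, both number 1 libraries were the highest of their groups, and the direction within numbers was split, with 3 higher and 2 lower. The log2 fold change was -0.01 (95% interval -0.39 to 0.38; limma adjusted p = 0.991). Its sign was not stable: it was 0.02 with median-of-ratios scaling and with quantile normalization, and 0.16 without medium 1. With the replicate block the interval narrowed to -0.16 to 0.15, below the 0.38 and 1.11 of H1f2 and H2bc4, although the difference between genes was not tested. H4c8 read 0.330, 0.625, 1.91, 0.766 and 0.491 FPKM in medium and 3.65, 0.862, 1.13, 1.10 and 1.67 with doxorubicin. Its highest values were doxorubicin 1 and medium 3, and the log2 fold change of 0.53 did not pass (adjusted p = 0.328, and 0.178 with the block). H4c12 ranged from 1.37 to 2.73 FPKM in medium and from 0.952 to 3.79 with doxorubicin (log2 fold change 0.21; adjusted p = 0.656, and 0.275 with the block). It shares 71.5% of its 50-base stretches with other genes, the most of the 12.

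H2ac8, the H2A gene above the filter, had the lowest log2 fold change of the 12. It read 2.93, 1.76, 3.17, 1.92 and 1.42 FPKM in medium and 2.73, 1.67, 1.80, 1.08 and 1.29 with doxorubicin, with overlapping groups. Each doxorubicin library lay below the medium library of its number, as in 1 of the 12 genes and 23.1% of all genes. The log2 fold change was -0.25 (SE 0.19; limma adjusted p = 0.514, and 0.0844 with the replicate block). In the blocked fit of numbers 2 to 5 alone it was -0.30 (adjusted p = 0.0437).

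H2ac8 and H2bc8 start back to back, 178 bases apart, on opposite strands of chromosome 13. Such divergent pairs are the usual arrangement of H2A and H2B genes, and 9 were found with starts 162 to 279 bases apart, of which this was the only one with both genes tested. The 2 genes share the region between their starts, but the mean of H2bc8 went from 1.32 ± 0.703 to 2.85 ± 2.35 FPKM and that of H2ac8 from 2.24 ± 0.764 to 1.71 ± 0.640. The difference between the 2 genes was not tested.

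Sums over a class depend less than single genes on how reads were shared among copies, although the copies differ in transcript length, by which FPKM are divided, and are given as a description. The 17 H2B genes summed to 42.7 ± 5.79 FPKM in medium and 86.1 ± 25.4 with doxorubicin (log2 ratio of the means 1.01), with no overlap (36.2 to 49.1 against 72.2 to 131). H2bc4 was 66.2% to 80.1% of this sum in medium and 81.4% to 86.8% with doxorubicin, and without it the sum was 10.7 ± 3.44 and 14.5 ± 5.09. The 5 H1 genes summed to 28.8 ± 5.51 and 37.0 ± 5.85 (0.36), nearly all of it H1f2 (88.5% to 96.9% of the sum in a library). The 12 H4 genes summed to 31.4 ± 8.37 and 31.5 ± 7.80 (0.01), and H4c9 was 60.8% to 87.6% of this. The 17 H2A genes summed to 5.19 ± 2.44 and 4.90 ± 1.73 (-0.08) and the 12 H3 genes to 5.26 ± 3.07 and 7.10 ± 2.0 (0.43). These 2 sums depended on medium 3: without it the H2A ratio was 0.24 and the H3 ratio 0.87. H3 in the other 4 medium libraries lay at 3.70 to 4.07 FPKM, below the 5.17 to 10.4 with doxorubicin.

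Among the 51 weakly expressed genes, 1 library of the medium group decided the direction. Their summed FPKM was 11.3, 7.06, 33.9, 8.50 and 8.86 in medium 1 to 5 and 19.7, 9.75, 8.0, 11.2 and 12.03 with doxorubicin 1 to 5. Medium 3 was thus at about 3 times the next medium library, and all classes took part, with 3.53 FPKM in H1, 6.17 in H2A, 8.10 in H2B, 6.86 in H3 and 9.20 in H4. Of the 50 weakly expressed genes with a value above 0, 27 were highest in medium 3 (54.0%), against 6.67% of 5862 genes in the same range. With all libraries the doxorubicin mean was the higher in 21 of the 50, and without medium 3 in 38 of them. For all 5862 genes that share was 63.1% with all libraries and 62.7% without medium 3.

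**Figure D4:**
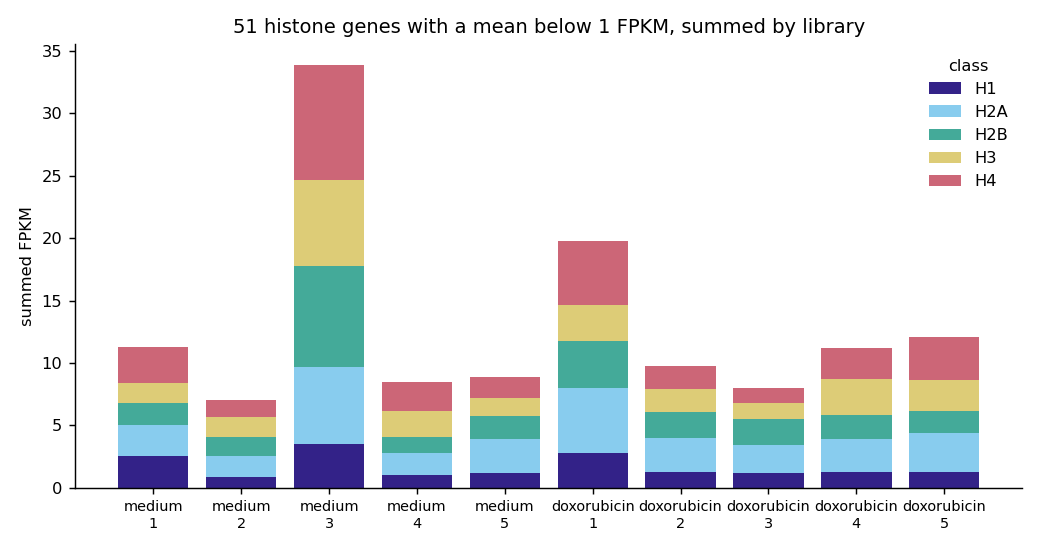
Summed FPKM of the 51 histone genes with a mean below 1 FPKM, in each library, stacked by class. Medium 3 stands at 33.9 FPKM, against 7.06 to 11.3 in the other medium libraries and 8.0 to 19.7 with doxorubicin.

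Medium 3 exceeded every other library by more than 2 times in 16 of these 50 genes (32.0%), against 136 of the 5862 genes in the same range (2.32%). With a minimum added after the values were seen, 18 genes of the whole table reached at least 0.3 FPKM in medium 3 and more than 2 times the value of every other library, and 16 of them were weakly expressed histone genes. H2bc14 was at 0.960 FPKM, with at most 0.101 elsewhere, H4c4 at 2.23 with at most 0.352, H2bc18 at 2.23 with at most 0.484, and H4c14 at 1.66 with at most 0.505. The other 2 genes were Lars2 (167 FPKM in medium 3, 32.4 to 50.8 elsewhere) and LOC118568312 (2880 FPKM, 331 to 615 elsewhere). Lars2 encodes the mitochondrial leucyl-tRNA synthetase, and its mouse locus is known to hold a stretch that resembles ribosomal RNA. By the same limits the count was 74 genes in medium 1 and 108 in doxorubicin 1, with 0 and 5 histone genes, and 0 to 4 genes in the other 7 libraries, with no histone gene. The S phase list stood at a median deviation of 0.25 in medium 3 and at 0.40 in medium 2, where the weakly expressed histone genes had their lowest sum. The 18 RNAs without a poly(A) tail that were listed for comparison were not analysed here, and what set medium 3 apart was not tested.

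The median mean of the weakly expressed genes over the 10 libraries was 0.428 FPKM for 4 H1 genes, 0.224 for 16 H2A genes, 0.228 for 12 H2B genes, 0.209 for 10 H3 genes and 0.344 for 9 H4 genes. Without medium 3 these medians were 0.379, 0.218, 0.160, 0.197 and 0.199 FPKM, and classes were not tested against each other. The highest mean was that of H1f3 in H1 (0.737 FPKM), H2ac7 in H2A (0.397), H2bc18 in H2B (0.417), H3c2 in H3 (0.494) and H4c18 in H4 (0.681). All 5 doxorubicin libraries lay above all 5 medium libraries in 1 of the 50 (1.64% of all genes in this range) and below them in 0 (0.307%). That gene, H3c15, named after its values were seen, read 0.159, 0.0745, 0.143, 0.0586 and 0.118 FPKM in medium and 0.467, 0.291, 0.211, 0.362 and 0.263 with doxorubicin. With the filter lowered to a mean of 0.1 FPKM and the replicate block, 53 histone genes were tested and 8 were higher, the 7 named above and H3c15 (7.14% of all genes tested at that filter).

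Annotated transcript ends were set beside the levels. Among the 12 better expressed genes, 7 had transcripts that run on for more than 100 bases after the stem-loop, 2 had transcripts that end within 100 bases of it and 3 had no match. Among the 50 weakly expressed genes with reference transcripts, the numbers were 12, 21 and 17. Of all the genes without a match, weakly expressed or not, 11 have annotated transcripts that end with the coding sequence. A hairpin after it could not be found there, so no match does not mean that the gene lacks one. Of the 7 genes higher with the block, H2bc4 and H2bc21 had no match, H2bc6, H1f2, H3c4 and H2bc8 ran on for more than 100 bases, and H3c8 ended within 100. H4c9 and H2ac8, with log2 fold changes of -0.01 and -0.25, also ran on for more than 100 bases. Among the 5 genes listed as known for polyadenylated transcripts in differentiated cells, 3 were tested (H1f2, H2bc4 and H2bc21). All 3 were higher with the block (7.81% of all genes) and 1 without it (0.689%). The other 2, H2ac6 and H2bc12, had means below 1 FPKM. This list was chosen with earlier results of these data known, and the part of transcript ends in the changes was not tested. The 12 better expressed genes shared a median of 29.8% of their 50-base stretches with other genes, against 64.2% for the weakly expressed ones. The FPKM of the latter therefore depend more on how reads of near-identical copies were assigned, which is not given in the sources used here.

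The effect of doxorubicin was also compared between libraries of numbers 4 and 5 and of numbers 2 and 3, which resembled each other in pairs. These sets were read from earlier results of these data and not from the labels. By the limma interaction term 0 of the 12 genes differed (1.56% of all genes), with 1 (2.52%) under the replicate block. That gene, H2bc8, had an effect of 0.14 on the log2 scale in numbers 2 and 3 and of 0.79 in numbers 4 and 5 (adjusted p = 0.214 without and 0.0475 with the block).

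Variant histones, many of which are made also outside S phase from polyadenylated RNA, had changes on both sides of 0. Whether this holds for each gene listed here was not examined. Of 11 tested, 0 passed without a block, and with it 1 was higher and 1 lower (7.81% and 13.7% of all genes). The median log2 fold change was 0.01. H2ax, whose phosphorylated product marks DNA breaks, went from 18.9 ± 7.81 to 28.4 ± 10.4 FPKM and was higher in all 5 numbers (log2 fold change 0.61; limma adjusted p = 0.382, and 0.0126 with the block). H1f0, the linker histone of resting and differentiated cells, went from 27.3 ± 11.8 to 16.3 ± 4.40 and was lower in all 5 (-0.63; adjusted p = 0.305, and 0.00656 with the block). H3f3a went from 282 ± 49.9 to 301 ± 68.7 FPKM, H3f3b from 180 ± 32.0 to 166 ± 20.0 and H2az1 from 549 ± 126 to 542 ± 63.8, all within the spread of their groups. H2aj (log2 fold change 0.28) and Macroh2a1 (0.12) did not pass in either fit. H2aw (-1.11) did not pass either, and its doxorubicin libraries split into 0.993, 1.12 and 1.34 FPKM against 9.78 and 12.4. In the blocked fit of numbers 2 to 5 alone 2 variant genes were higher (H2ax and H2aj) and 2 lower (H1f0 and H3f3b). Of all genes, 10.2% were higher and 18.4% lower in that fit.

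Of 20 tested genes of 3′ end processing, transcription and decay of histone RNA, 0 were called over all 10 libraries, with or without the block. With the block 7.81% of all genes were higher and 13.7% lower. The median log2 fold change of the 20 was -0.02. In the blocked fit of numbers 2 to 5 alone, Ncbp2 was higher (log2 fold change 0.22, limma adjusted p = 0.0123). Eri1 (-0.16, adjusted p = 0.0269) and Mblac1, a nuclease gene of histone 3′ ends (-0.46, adjusted p = 0.0129), were lower in it. That fit called 10.2% of all genes higher and 18.4% lower. Slbp, which encodes the stem-loop binding protein, stood at 27.6 ± 5.24 FPKM without and 27.1 ± 3.22 with doxorubicin (log2 fold change -0.01), and Npat, the coactivator of histone transcription, at 7.30 ± 0.928 and 7.34 ± 0.883 (0.01). Casp8ap2 (-0.04), Lsm10 (-0.11) and Lsm11 (-0.14), of the histone locus body and the U7 particle, and Eri1 (-0.12), an exonuclease of the stem-loop, had adjusted p-values of 0.431 to 0.936. The smallest adjusted p-values were those of Tut7, a uridylating enzyme of histone decay (-0.17), Ncbp2 of the cap-binding complex (0.38) and Dis3l2, an exonuclease of uridylated RNA (-0.27), at 0.201 to 0.369. With the block they were 0.0589, 0.0518 and 0.0541. Ncbp2 read 28.5 to 56.5 FPKM in medium and 57.5 to 60.8 with doxorubicin, so its groups did not overlap.

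**Figure D5:**
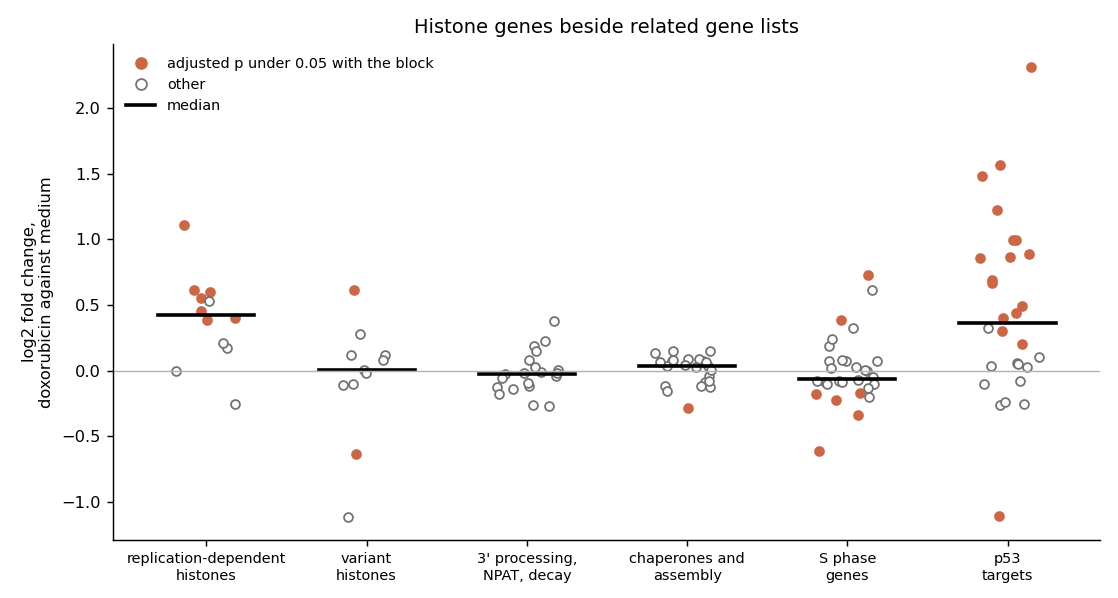
Log2 fold change (doxorubicin against medium, log2(FPKM + 1) scale) of each tested gene in 6 lists, with filled points at an adjusted p under 0.05 with the replicate block and bars at the median. The histone genes have a median of 0.43, the p53 targets of 0.36 and the other 4 lists between -0.06 and 0.03. Among the histone genes, H2bc6, H2bc9, H3c4 and H4c8 passed the filter only through their doxorubicin libraries, so the histone median leans upward.

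Histone chaperones, which carry new histones to DNA, gave the same picture, with a median of 0.03. Of 23 tested, 0 passed without the block and 1 was lower with it (13.7% of all genes). That gene was Asf1a, a chaperone of H3 and H4 (log2 fold change -0.28, adjusted p = 0.0174 with the block). Chaf1a (0.07), Asf1b (0.09) and Nasp (0.07) differed by less than their SE, and Rbbp7 (0.15), Daxx (-0.16), Cdan1 (-0.11) and Ssrp1 (-0.13) did not pass in either fit. In the blocked fit of numbers 2 to 5 alone, Cdan1 was lower beside Asf1a (18.4% of all genes lower). Of 30 S phase genes 0 passed without the block, and 2 were higher and 5 lower with it (median -0.06). Of all genes, 7.81% were higher and 13.7% lower with the block, and the list was not tested against these shares. Cdc45, a part of the replicative helicase, stood at 42.4 ± 7.21 FPKM without and 27.2 ± 3.17 with doxorubicin, with no overlap (log2 fold change -0.61; limma adjusted p = 0.0532, and 0.00203 with the block). With the block the thymidine kinase gene Tk1 (-0.34), the polymerase genes Pold1 (-0.22) and Pole (-0.17) and the ligase gene Lig1 (-0.18) were also lower, and the cyclin gene Ccne1 (0.73) and the flap endonuclease gene Fen1 (0.39) higher. Cdt1 (-0.20), a licensing factor, did not pass in either fit. Of 28 p53 targets, 10 were higher and 0 lower without the block (0.689% and 0.223% of all genes). With it 16 were higher and 1, Gadd45a (-1.11), lower (7.81% and 13.7% of all genes). Cdkn1a (1.48), Ccng1 (1.56), Trp53inp1 (2.31) and Ercc5 (0.89) had the smallest adjusted p-values, at 0.00466 to 0.0154, next to the 0.0154 of H2bc4.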

How the data were processed

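Poly(A) RNA of 10 libraries was measured, 5 in medium and 5 with doxorubicin. Oligo(dT) beads captured the RNA, which was then fragmented, copied from random primers and size selected, per the labels' protocols. The authors deposited FPKM per gene and library; their build, GRCm39, is from the submitters' processing notes, and the aligner, quantifier, annotation and filters are not given in the sources used here. Depth is unknown, so no counting interval is given.

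The 9869 genes averaging 1 FPKM or more were fitted as log2(FPKM + 1) with limma 3.58.1 in R 4.3.3 (group only, mean-variance trend, two-sided, Benjamini-Hochberg, adjusted p under 0.05). Deviations from the group means correlated at 0.79, 0.70, 0.67, 0.52 and 0.55 between libraries of the same number from the sample titles, so a fit with the number as a block stands beside results it changes. Some different numbers were about as alike. Medium 2 and doxorubicin 3 correlated at 0.69, and medium 3 and doxorubicin 2 at 0.59. Medium 4 with doxorubicin 5, and medium 5 with doxorubicin 4, correlated at 0.51. The labels state no pairing by number, so the block is an assumption. The scripts were tested on simulated data. The histone genes and the gene lists were chosen with earlier results of these data known. Named are all histone genes above the filter, the highest below it in each class, and up to 4 genes per other list by adjusted p beside a set of histone factors; Asf1a, Ccne1, Fen1, Pole, Lig1, Gadd45a, Lyz2, Itgam, C1qc, Mblac1, Lars2 and LOC118568312 were added after their values were seen. Transcripts (GENCODE M21) and promoters (RefSeq, GRCm38.p6) served for sequence only. Figures were drawn with matplotlib 3.10.9.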

Additional observations from a re-analysis of the deposited data

Results flagged for a closer look

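In 12 of 36 sets of 5 libraries examined (12 genes and 6 sums, in each group), 1 library lay far from the other 4. Chance flags about 1 in 20 sets of normal values. These sets are FPKM and overlap, since the class sums contain the genes listed, so the 12 cannot be set against that rate. Of the 12 flagged sets, 6 were in doxorubicin 1, 4 in medium 3 and 2 in medium 1. Doxorubicin 1 was high for H2bc4 (108 FPKM), H2bc8 (6.99) and H4c8 (3.65) and for the sums of H2A (7.95), H2B (131) and H4 (45.2). Medium 3 was high for H4c8 (1.91 FPKM), H3c8 (2.48), the H3 sum (10.7) and the sum of the genes below 1 FPKM (33.9). Medium 1 was high for H4c9 (38.7 FPKM) and low for H2bc6 (0.291).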

How the results depend on the processing

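The number of histone genes with an adjusted p under 0.05 was 1 of 12 in the fit as designed. It was 2 with quantile normalization (of 101 genes called in all), 7 with the replicate block (2127), 7 with 3 blocks (number 1, numbers 2 and 3, numbers 4 and 5; 3168), 3 without both number 1 libraries (556), 8 with that omission and the block (2827), 8 with library quality weights (3681) and 0 by an exact permutation test (0), whose smallest p is 0.00794 before adjustment. Leaving out 1 library gave 0 (medium 4) to 3 (medium 1). Alternatives added after the data were seen gave 0 without both number 3 libraries, 5 without medium 3 and both number 1 libraries (297), 8 at a mean of at least 0.1 FPKM with the block (2117), and 5 at that filter with the block and without both number 3 libraries (1165). The cause of these differences was not tested. H4c9 (-0.01) changed sign without passing the threshold: it was 0.02 with median-of-ratios scaling and with quantile normalization, 0.05 without both number 1 libraries (with or without the block, and also without medium 3), 0.08 with library quality weights, and -0.11 to 0.16 with 1 library left out (0.16 without medium 1, and 0.05, 0.01 and 0.03 without doxorubicin 2, 3 and 5). The other 11 genes kept their direction in every setting run, and the median log2 fold change ran from 0.29 to 0.63. The log2 ratio of the H1 sum was 0.47 without medium 1, 0.26 without doxorubicin 1 and 0.45 without medium 3 and both number 1 libraries, against 0.36. With 1 library left out it ran from 0.26 to 0.47, and that of H2A from -0.33 to 0.24, H2B from 0.81 to 1.07, H3 from 0.26 to 0.87 and H4 from -0.16 to 0.16. The interaction called 0 genes, and 1 with the replicate block.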
